A study of Arabidopsis thaliana with 3 samples.

Results

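The microRNAs miR165 and miR166 were followed in small RNA libraries of dcl1-9, cdf2 and wild-type Col seedlings. The members are the 9 mature entries ath-miR165a, ath-miR165b, ath-miR166a, ath-miR166b, ath-miR166c, ath-miR166d, ath-miR166e, ath-miR166f and ath-miR166g (written below without the ath- prefix), which were taken by name from files that list 338 miRNAs for dcl1-9 and 328 each for cdf2 and Col, and all 9 had reads in each library. All plants were of the Col ecotype, untreated, grown in soil under 16 hr of light and 8 hr of dark, and sampled as seedlings at 22 days. The dcl1-9 plants carry a mutant allele of DCL1, which affects the double-stranded RNA binding region at the C-terminus of the protein, and the cdf2 plants are mutant for CDF2, a DOF transcription factor that the study tested as a partner of DCL1. Col is the wild type. DCL1 and CDF2 transcripts were not measured in these libraries, so the genotype labels were not checked against the mutated genes. Each genotype is represented by 1 library, so no difference between genotypes has a replicate check in these data. Every interval given is a 95% interval for counting error only. The study also reports northern blots of miRNAs, miR165 among them, in Col and cdf2, which were not used here. It blotted inflorescences too, to lessen a possible influence of developmental stage on the comparison of Col with cdf2. Reads carry no molecular identifiers, and therefore are not independent molecules.

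In plants, DCL1 cuts a primary transcript with a stem-loop and releases a duplex, of which the mature strand is loaded into an ARGONAUTE protein. miR165 and miR166 guide the repression of the class III homeodomain-leucine zipper (HD-ZIP III) genes PHB, PHV, REV, HB-8 and ATHB-15. These transcription factors specify the upper (adaxial) side of the leaf, the shoot meristem and the vascular tissue, and the miRNAs confine them by acting on the lower (abaxial) side. ARGONAUTE10 is known to sequester the same miRNAs in the shoot meristem. None of these mRNAs was measured here. In seedling RNA, fewer cells with a miRNA and less miRNA per cell cannot be told apart.

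The mature sequences are shown first because the counts cannot be read without them. In the RefSeq annotation of TAIR10.1, all 9 members matched a locus, the 2 miR165 loci hold 1 mature sequence and the 7 miR166 loci hold another, each of 21 bases. The capitals mark the seed, bases 2 to 8.
miR165a and miR165b: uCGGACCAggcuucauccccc
miR166a to miR166g: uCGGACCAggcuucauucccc
The seed is shared, and the sequences differ by 1 substitution, C17U, counted from the 5′ end with the miR165 base first. A read of the mature sequence therefore separates miR165 from miR166 by 1 base and cannot be assigned to a locus within either family. Whether the alignment that gave the counts of known miRNAs allowed a mismatch is not given in the sources used here.

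The loci are spread over all chromosomes of the nuclear genome. MIR165a (AT1G01183) occupies chr1:78927-79037 and MIR165b (AT4G00885) chr4:369831-370012, both on the minus strand. MIR166a (AT2G46685) occupies chr2:19176108-19176277 and MIR166b (AT3G61897) chr3:22922206-22922325, both on the plus strand. The other 5 miR166 loci are on chromosome 5, with MIR166c at chr5:2838635-2838773, MIR166d at chr5:2840622-2840734, MIR166f at chr5:17516301-17516405 and MIR166g at chr5:25504798-25504919 on the plus strand, and MIR166e at chr5:16775520-16775662 on the minus strand. MIR166c and MIR166d are separated by 1848 bases. The annotated precursors are between 105 bases (MIR166f) and 182 bases (MIR165b) long, all 9 carry the mature sequence on their 3′ side, and 0 of 9 overlap a protein-coding gene. A precursor of each family is printed to show the substrate that DCL1 cuts, with the mature sequence in capitals.
MIR165a: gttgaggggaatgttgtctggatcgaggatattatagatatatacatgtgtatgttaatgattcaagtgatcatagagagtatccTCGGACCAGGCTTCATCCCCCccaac
MIR166a: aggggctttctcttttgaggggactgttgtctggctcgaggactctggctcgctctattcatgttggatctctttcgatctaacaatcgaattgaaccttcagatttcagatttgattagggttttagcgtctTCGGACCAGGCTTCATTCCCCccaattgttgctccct

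The complementary sites of the HD-ZIP III genes were located in their RefSeq transcripts as the window with the most Watson-Crick pairs to miR166, to show what the base that separates the families faces in the targets. Capitals mark the bases without a Watson-Crick partner in miR166.
PHB: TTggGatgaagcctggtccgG
PHV: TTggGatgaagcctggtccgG
REV: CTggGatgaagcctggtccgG
HB-8: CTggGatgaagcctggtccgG
ATHB-15: CTggaatgaagcctggtccgG
All 5 sites are in coding sequence and span an exon junction, with 11 bases in the upstream exon. The PHB site (minus strand) is split between chr2:14642656-14642666 in exon 4 and chr2:14642530-14642539 in exon 5, and the REV site (plus strand) between chr5:24398787-24398797 in exon 4 and chr5:24398889-24398898 in exon 5. At PHB, PHV, REV and HB-8, miR165 forms 18 Watson-Crick pairs and 1 G:U pair, and miR166 forms 17 and 2. At ATHB-15, the order is turned round, with 17 Watson-Crick pairs and 1 G:U pair for miR165, and 18 and 1 for miR166. Thus 4 sites have more Watson-Crick pairs with miR165 and 1 has more with miR166, each by 1 pair. This is a description of the sequences, and pairing was not related to any measurement of the targets.

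The miRNA counts of the libraries add up to 378685 in dcl1-9, 5248526 in cdf2 and 8833288 in Col, with reads shared by members counted once per member. With the entry of most reads in each family alone, miRNAs take 0.613%, 13.1% and 23.2% of the total reads in dcl1-9, cdf2 and Col. The counts were scaled to RPM (reads per 1000000 total reads). The totals were taken from the study's text, where their separators are misplaced, and were read as the digits in order. On this scale 1 read is worth 0.0764 RPM in dcl1-9, 0.0810 RPM in cdf2 and 0.0870 RPM in Col.

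miR165a had 1691 reads in dcl1-9, 40355 in cdf2 and 76644 in Col, which are 129, 3268 and 6671 RPM. miR165b had nearly the same counts, with 1699 reads in dcl1-9, 40023 in cdf2 and 75983 in Col. miR166a had 36431 reads in dcl1-9, 279761 in cdf2 and 493332 in Col, which are 2785, 22654 and 42938 RPM. In RPM, both families were therefore highest in Col, intermediate in cdf2 and lowest in dcl1-9. For miR166 this order changes with the scale, as described below. The counts of miR166b to miR166g lay between 36096 and 36119 in dcl1-9, between 272820 and 272966 in cdf2 and between 481629 and 481896 in Col. The spread over these 6 entries is 0.0637%, 0.0535% and 0.0554% of the lowest count in dcl1-9, cdf2 and Col. The 9 members are thus 2 measurements, 1 for each mature sequence, and not 9, and each family is represented in the comparisons by the entry with the most reads in Col, which is miR165a for miR165 and miR166a for miR166.

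**Figure D1:**
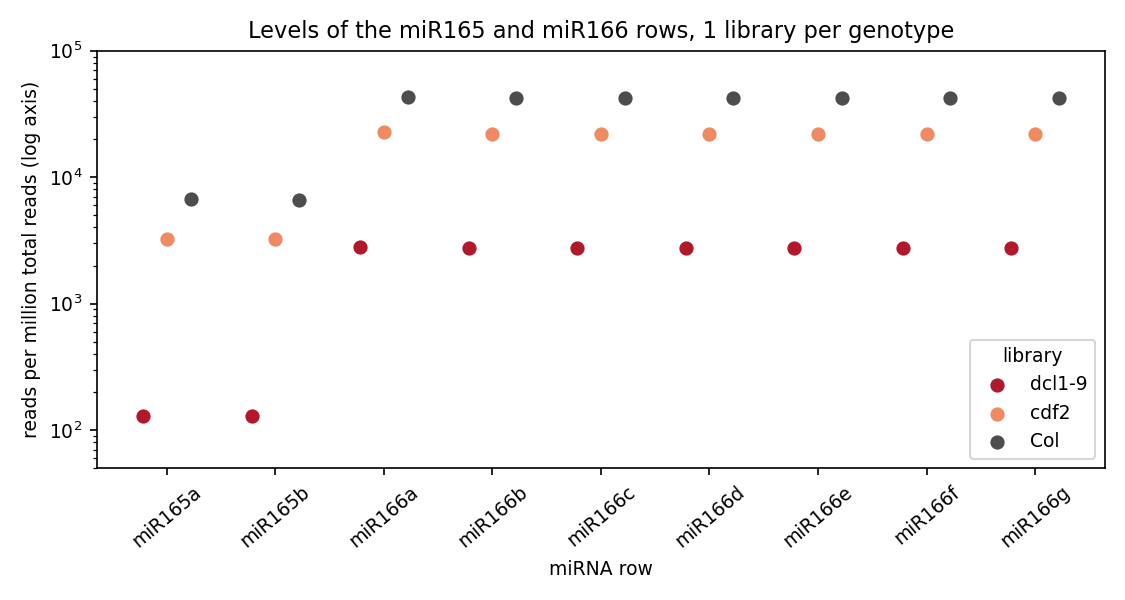
RPM (log axis) of the 9 entries in the dcl1-9, cdf2 and Col libraries, 1 point per library with no error because there is 1 library per genotype. The entries of a family overlap, and the distance between dcl1-9 and the other libraries is wider for miR165 (129 RPM in dcl1-9 against 6671 RPM in Col for miR165a) than for miR166 (2785 RPM against 42938 RPM for miR166a).

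Both miRNAs fell in dcl1-9, and miR165 fell further. The level of miR165a in dcl1-9 was 1.94% of that in Col, a fold change of 0.0194 (0.0185 to 0.0203), or 51.6-fold lower. The level of miR166a was 6.49% of that in Col, a fold change of 0.0649 (0.0642 to 0.0656), or 15.4-fold lower. These intervals do not overlap. The background was taken from 109 miRNAs that had 100 reads or more in dcl1-9 and Col together. Of these, 100% were lower by at least 1.5-fold in dcl1-9 and 0% were higher, so that the fall of all 9 members in itself is no result about them. The size rests on the library totals. With the totals in the deposited comparison tables, the falls were 30.4-fold for miR165a and 9.09-fold for miR166a, and with the scales that set the miRNA counts themselves level (the sum of miRNA reads, TMM and DESeq2 size factors), miR166a was between 1.69-fold and 1.72-fold higher in dcl1-9 while miR165a stayed lower, at a fold change of 0.504 to 0.515. On these last scales 61.5% to 62.4% of the 109 were lower and 22.9% were higher. The sum of miRNA reads counts miR166 reads in each of the 7 miR166 entries. These entries hold 253077 of the 378685 counts in dcl1-9 and 3383910 of the 8833288 in Col. That scale is therefore set in part by miR166 itself, and its miR166 fold change is not an independent measure.

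The comparison of miR165 with miR166 inside a library does not depend on any total. miR165a made up 4.44% of the miR165a and miR166a reads in dcl1-9 (Clopper-Pearson interval 4.23% to 4.65%), 12.6% in cdf2 (12.5% to 12.7%) and 13.4% in Col (13.4% to 13.5%). There were 21.5 reads of miR166a for each read of miR165a in dcl1-9, 6.93 in cdf2 and 6.44 in Col. The dcl1-9 library stands apart from both others, and cdf2 lies close to Col. The fold change of miR165a in dcl1-9 over Col was 0.299 times that of miR166a (0.284 to 0.314, from the variance of the log of the 4 counts), so that miR166 kept 3.35 times as much of its Col level as miR165 did (3.19 to 3.52). For cdf2 over Col the same ratio was 0.928 (0.917 to 0.941), a difference of the same direction and of much smaller size. Set directly against cdf2, the ratio in dcl1-9 was 0.322 (0.306 to 0.338). With 1 library per genotype, how much this ratio varies between libraries of 1 genotype is not known, and the 0.928 in cdf2 is beyond counting error only.

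**Figure D2:**
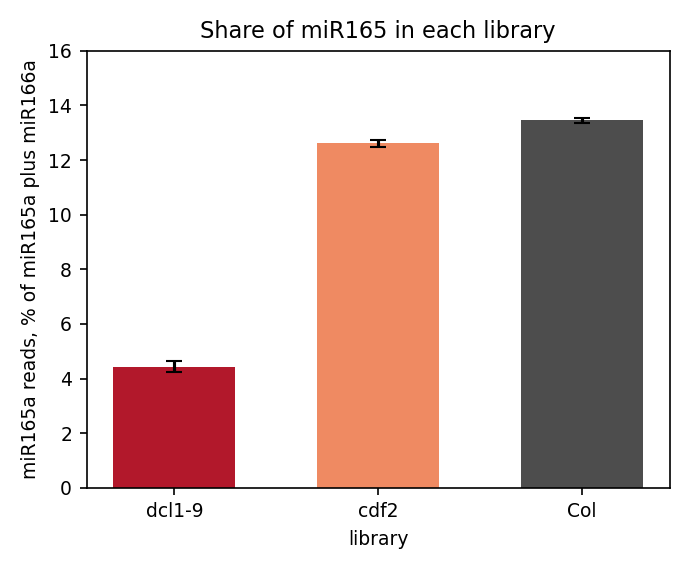
Reads of miR165a as a percentage of the miR165a plus miR166a reads in each library, with 95% Clopper-Pearson intervals as error bars, which cover counting error only. The share is 4.44% in dcl1-9, 12.6% in cdf2 and 13.4% in Col.

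The loss of miR165 in dcl1-9 is near the middle of the distribution over other miRNAs, and that of miR166 is among the smaller ones. The median miRNA of the 109 kept 1.08% of its Col level in dcl1-9. Of the 100 of these that are not members, 63 kept less than miR165a (59 when counts of 3 or fewer reads in dcl1-9, held by 30 of the 109, were set to 3) and 82 kept less than miR166a (82 with that setting). Among the 26 other miRNAs with at least 10000 reads in Col, 24 kept less than miR166a and 16 kept less than miR165a (a minimum chosen after the data were seen). The exceptions were miR168a, with 17206 reads in dcl1-9 and 129349 in Col, and miR168b, with 17182 and 129158, which both kept 11.7%. miR168 targets ARGONAUTE1. By read count the miR166 entries held ranks 1 to 7 in dcl1-9, 4 to 10 in cdf2 and 5 to 11 in Col, while miR165a was at rank 22 in all of them. The miR166a count alone was 9.62% of the summed miRNA counts in dcl1-9, 5.33% in cdf2 and 5.58% in Col. These sums count a shared miR166 read in up to 7 entries, so the shares are understated. With 1 entry per family, the sums are 80167 in dcl1-9, 1623741 in cdf2 and 2669903 in Col. Of these, miR166a holds 36431, 279761 and 493332 reads.

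The 3 other families with the most reads in Col were set beside the members, again as ratios in which the totals cancel. In dcl1-9, miR157c had 7927 reads, against 648158 in Col, and kept 1.07%. miR156d, which like miR157 targets SPL genes of the juvenile-to-adult transition, had 9154 reads in dcl1-9, against 532299 in Col, and kept 1.51%. miR167b, a regulator of the auxin response factors ARF6 and ARF8, had 3955 reads in dcl1-9, against 405006 in Col, and kept 0.858%. Each of these 3 entries kept less than both members. For miR156 this depends on the entry. miR156a, miR156b, miR156c, miR156e, miR156f and miR156j had fold changes of 0.0298 to 0.0307 in dcl1-9. These are above the 0.0194 of miR165a and below the 0.0649 of miR166a. miR156d, miR156g and miR156h, at 0.000912 to 0.0151, were below both. miR166a kept 6.04 times the share of miR157c (5.89 to 6.19), 4.29 times that of miR156d (4.20 to 4.40) and 7.56 times that of miR167b (7.32 to 7.82). The same ratios for miR165a were 1.80 (1.71 to 1.90), 1.28 (1.22 to 1.35) and 2.26 (2.13 to 2.39). miR165a thus lies nearer to these 3 entries than to miR166a, from which it differs by 1 base.

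**Figure D3:**
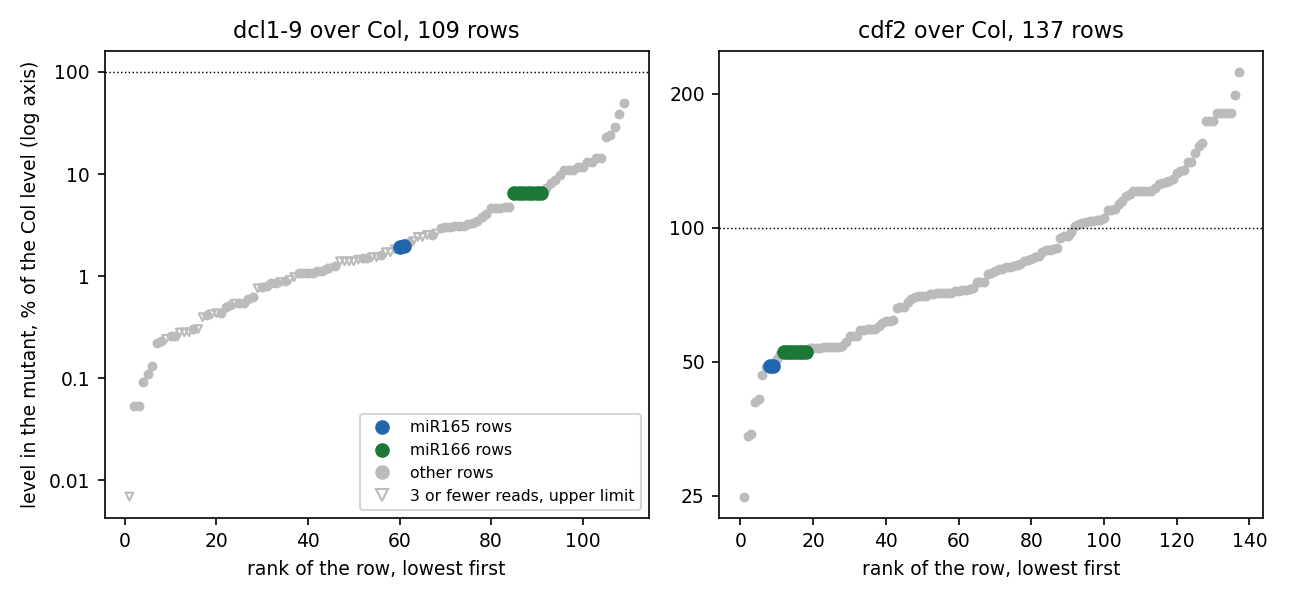
Level in each mutant as a percentage of the Col level (log axes that differ between the panels) for the miRNAs with at least 100 reads in the pair of libraries, ordered by rank. Blue marks miR165, green miR166 and grey the others, with open triangles for counts of 3 or fewer reads drawn as if 3 reads. In dcl1-9 the miR165 points lie near 1.94% and the miR166 points near 6.49%, and in cdf2 both are at the low end, near 49.0% and 52.8%.

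In cdf2 both miRNAs were at about the same fraction of Col. The fold change in cdf2 was 0.490 (0.484 to 0.496) for miR165a and 0.528 (0.525 to 0.530) for miR166a, and the other 7 members had 0.490 or 0.527. All 9 members were lower by at least 1.5-fold. Taking 137 miRNAs that had 100 reads or more in cdf2 and Col together, 32.8% were lower by that much and 8.76% higher, and the median fold change was 0.790. Of the 128 miRNAs outside the 9 members, 7 had a lower fold change than miR165a and 9 a lower one than miR166a. The calls change with some of the scales. With the deposited totals all 9 members stayed lower by at least 1.5-fold, where 30.7% of the 137 were lower and 9.49% higher. All 9 also stayed lower with TMM, where 21.2% of the 137 were lower and 15.3% higher. With DESeq2 size factors 2 of 9 members, both of miR165, were lower by at least 1.5-fold, and with the sum of miRNA reads 0 of 9 were (fold changes of 0.886 for miR165a and 0.954 for miR166a). With DESeq2 and the sum of miRNA reads, 6.57% and 2.19% of the 137 were lower and 24.1% and 44.5% were higher. The sum counts miR166 reads in each of its 7 entries, which hold 1917119 of the 5248526 counts in cdf2. In ratios to the abundant families, which are free of the totals, the cdf2 fold change of miR166a was 0.922 times that of miR157c (0.917 to 0.928), 1.13 times that of miR156d (1.12 to 1.14) and 0.984 times that of miR167b (0.977 to 0.991). The ratios for miR165a were 0.856, 1.05 and 0.914. Both members were therefore close to these families in cdf2, where in dcl1-9 miR166a differed from them several-fold. The comparisons of cdf2 and dcl1-9 share the Col library.

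The small differences between the counts of members with 1 mature sequence were examined next. Which reads make them up was not tested. The windows around the mature sequence (capitals) are shown with 8 bases on each side, as DNA of TAIR10.1 on the strand of each gene.
MIR165a: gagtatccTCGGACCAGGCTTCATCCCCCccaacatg
MIR165b: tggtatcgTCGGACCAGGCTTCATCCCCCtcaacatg
MIR166a: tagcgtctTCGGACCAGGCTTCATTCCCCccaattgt
MIR166b: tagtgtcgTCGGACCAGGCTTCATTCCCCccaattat
MIR166c: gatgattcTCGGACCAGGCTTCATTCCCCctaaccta
MIR166d: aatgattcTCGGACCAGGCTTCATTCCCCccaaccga
MIR166e: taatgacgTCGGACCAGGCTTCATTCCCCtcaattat
MIR166f: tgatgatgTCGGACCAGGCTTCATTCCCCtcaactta
MIR166g: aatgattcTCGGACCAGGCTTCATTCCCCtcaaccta
In the single base directly before and the single base directly after the mature sequence, MIR166c equals MIR166d and MIR166e equals MIR166f. MIR166g shares the base directly before with the first pair and the base directly after with the second, and MIR166a has a base directly before that no other member has.

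The counts were alike where these bases were alike. Relative to miR166b, miR166c and miR166d each had 6 more reads in dcl1-9 and 53 more in cdf2, and 121 and 123 more in Col. miR166e and miR166f had 17 and 18 more reads in dcl1-9, 93 more each in cdf2, and 147 and 146 more in Col. miR166g had 23 more in dcl1-9, 146 more in cdf2 and 267 more in Col, which in each library is the excess of miR166c plus that of miR166e to within 1 read. The miR166 entries alike in both bases thus had counts within 2 reads of each other, and the excess was additive over the sides. Whether reads that extend past the mature sequence were counted is not given in the sources used here and was not tested.

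miR166a had the largest excess, with 335 reads more than miR166b in dcl1-9, 6941 in cdf2 and 11703 in Col. This is 0.920% of the miR166a count in dcl1-9 (0.824% to 1.02%), 2.48% in cdf2 (2.42% to 2.54%) and 2.37% in Col (2.33% to 2.42%), if every other miR166a read stands in the miR166b count as well. In dcl1-9 the excess was 2.51% of its Col level, a fold change of 0.0251 (0.0225 to 0.0280), against 6.58% for miR166b, so that it kept 0.382 times as much as miR166b did (0.342 to 0.426). In cdf2 the excess had a fold change of 0.552 (0.536 to 0.568), which is 1.05 times that of miR166b (1.02 to 1.08). The excess was therefore reduced more in dcl1-9 than the miR166b count was. It is a net difference of 2 counts, and its intervals treat it as a plain count. They are too narrow if the miR166b count holds reads that the miR166a count does not. For miR165, the entry miR165a had 8 reads fewer than miR165b in dcl1-9, and 332 more in cdf2 and 661 more in Col, so that the order of the pair was turned round in dcl1-9 by 0.473% of the lower count.

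**Figure D4:**
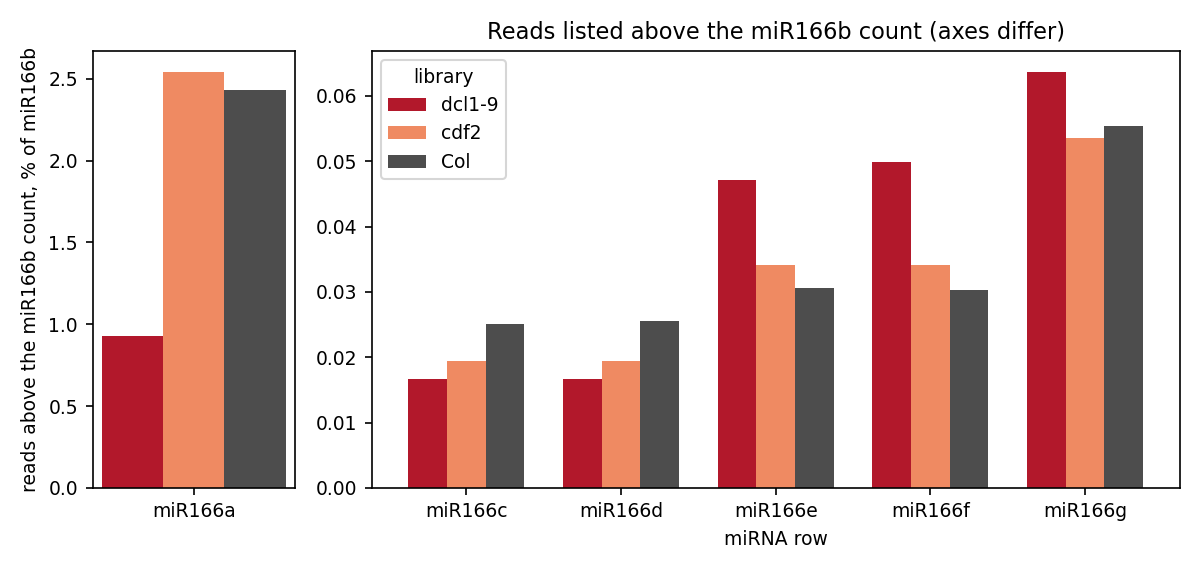
Reads of each miR166 entry above the miR166b count, as a percentage of miR166b, in dcl1-9, cdf2 and Col (bars from 0, vertical axes that differ between the panels, no error bars because there is 1 library per genotype). The excess of miR166a is smaller in dcl1-9 (0.928%) than in cdf2 (2.54%) and Col (2.43%), and the bars of miR166g equal the sums of those of miR166c and miR166e to within 1 read.

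Other miRNAs of leaf polarity and leaf shape were described as a list of 13, of which 10 had at least 100 reads in each pair of libraries. The list holds miR390a and miR390b, which trigger the TAS3 tasiRNAs that act on ARF3 and ARF4 in the same polarity pathway, miR160a to miR160c (ARF10, ARF16 and ARF17), miR164a to miR164c (CUC genes of organ boundaries), miR319a to miR319c (TCP genes of leaf curvature) and miR396a and miR396b (GRF genes of leaf growth). In dcl1-9, 10 of the 10 were lower by at least 1.5-fold, as were 100% of the background. The median of the 10 was 0.947% of Col, below both members and near the 1.08% of the background. With the sum of miRNA reads, TMM or DESeq2, 6 were lower and 2 higher, against 61.5% to 62.4% and 22.9% of the background. miR390a had 844 reads in dcl1-9, against 15454 in Col, and kept 4.80%, between miR165a and miR166a. The largest fall was that of miR396a, with 8 reads in dcl1-9, against 13338 in Col (0.0527%), and the smallest that of miR160a, with 33 reads in dcl1-9, against 121 in Col (24.0%).

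In cdf2, 5 of the 10 (miR390a, miR390b, miR396a, miR396b and miR164c) were lower by at least 1.5-fold, against 32.8% of the background, and 0 were higher, against 8.76%, with a median of 64.4% of Col. The 3 entries under 100 reads included 2 that were higher in cdf2. These were miR319b with 83 reads, against 11 in Col (fold change 7.02, 3.73 to 14.6), and miR160b with 64 reads, against 13 in Col (4.58, 2.50 to 9.07). Over all 13 there were thus 6 lower and 2 higher. Among all miRNAs with at least 1 read in Col, 107 were lower and 43 higher. No result about the list is drawn from these counts. With DESeq2 size factors 1 of the 10 was lower and 1 was higher, against 6.57% and 24.1% of the background. With TMM 3 were lower and 1 was higher, against 21.2% and 15.3%. Among the 10, the lowest was miR164c, with 443 reads in cdf2, against 1654 in Col (fold change 0.249, 0.224 to 0.277), and the highest was miR319a, with 210 reads in cdf2, against 154 in Col (1.27, 1.03 to 1.57). miR390a had 9820 reads in cdf2, against 15454 in Col, a fold change of 0.591. The counts of miR390b were nearly the same (9813 and 15451), so the 5 lower entries are not 5 separate measurements. Both members thus lay below the median of the list in cdf2 and above it in dcl1-9.

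The miRNAs whose pair of fold changes was most like those of the members were sought by the distance between the log2 fold changes of dcl1-9 and of cdf2 over Col, for 68 other miRNAs with at least 100 reads in Col and more than 3 in every library, with 1 miRNA taken per family. The nearest to miR165a was miR171a, which targets GRAS genes, at a distance of 0.18 on the log2 scale. It had 9 reads in dcl1-9, 205 in cdf2 and 366 in Col, and its place is therefore loose. miR156d followed at 0.37 and miR167d, with 68 reads in dcl1-9, 2195 in cdf2 and 4015 in Col, at 0.39. The nearest to miR166a were miR822 at 0.44 (218 reads in dcl1-9, 1273 in cdf2 and 2178 in Col), miR390a at 0.47 and miR824 at 0.64 (30 reads in dcl1-9, 314 in cdf2 and 361 in Col). Without miR171a and its 9 reads in dcl1-9, the nearest distances are 0.37 for miR165a and 0.44 for miR166a, so no difference in nearness is drawn. With 3 libraries, this is a description of these libraries only.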

How the data were processed

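Small RNA libraries of 22-day-old dcl1-9, cdf2 and Col seedlings, 1 per genotype, were analysed. Adaptors were trimmed by the authors, and Bowtie (version not given in the sources used here) placed the reads on the miRBase 15 hairpins. Known miRNAs were then identified with release 16 of the database, and raw read counts for each were deposited. Their methods normalise by perfectly aligned reads. Their comparison tables also hold RPM scaled to the totals listed there, log2 fold changes and p-values, which were not used. Those deposited totals (9443719 for dcl1-9, 14406060 for cdf2, 14073145 for Col) served as an alternative scale. How they relate to the total reads per library given in the study (printed there with misplaced separators), which scale the RPM here, is not given in the sources used here.

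Entries were joined by exact name. Of the Col names, 36 are not in the dcl1-9 file, where many names end in -3p or -5p, and were left out of that comparison, so the 292 shared names enter it. Fold changes are ratios of RPM with Clopper-Pearson intervals at 95% and no pseudocount. The call is a fold change of at least 1.5, without a test, since edgeR's quasi-likelihood test needs replicates. A count of 3 or fewer reads was taken as the floor (0.229 RPM in dcl1-9, 0.243 in cdf2, 0.261 in Col). Computations used Python 3.11.15, scipy 1.17.1, edgeR 4.0.16 and DESeq2 1.42.0, the last 2 for size factors only, and were tested on simulated data.

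The members, the list of leaf miRNAs and the rule for named miRNAs (all members, the nearest 3 of other families for each, the extremes of the list, the 3 other families with the most reads in Col) were chosen with earlier results of these data known. miR168a and miR168b are named outside the rule, after their values were seen. The star strands of these precursors were not analysed here.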

Additional observations from a re-analysis of the deposited data

How the results depend on the processing

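The ratio of the miR165 to the miR166 fold change stayed within its counting interval with the sum over members, the entry of fewest reads and 1 read added. The scale moved the median log2 fold change of all miRNAs in dcl1-9 by 0.76 (deposited totals), 4.73 (sum of miRNA reads), 4.70 (TMM) and 4.71 (DESeq2), and in cdf2 by 0.07, 0.86, 0.25 and 0.39. For dcl1-9, miR165 had fold changes of 0.0329 (deposited totals), 0.515 (sum of miRNA reads), 0.504 (TMM) and 0.507 (DESeq2), and miR166 of 0.110, 1.72, 1.69 and 1.70. The single entries miR166b to miR166g then gave 1.75, 1.71 and 1.72 with the last 3 scales, turned round as miR166a was. For cdf2 the values in the same order were 0.514, 0.886, 0.581 and 0.644 for miR165, and 0.554, 0.954, 0.626 and 0.693 for miR166. Summing members or taking the entry of fewest reads gave 0.0657 and 0.0658 for miR166 in dcl1-9. The miR165 share was 1.32%, 4.02% and 4.32% with sums in dcl1-9, cdf2 and Col, because 2 entries are set against 7, and 12.8% in cdf2 and 13.6% in Col with the entries of fewest reads.

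By at least 1.5-fold, 67 miRNAs were lower in dcl1-9 with the sum of miRNA reads, 68 with TMM and 67 with DESeq2, and 25 were higher with each. With at least 10 reads 188 were lower, and with 1 read in Col 241 were lower and 1 higher. More miRNAs are tested at a lower minimum, so the counts at different minimums, here and for cdf2, are not comparable as shares. In cdf2, the sum of miRNA reads left 3 lower and made 61 higher, and the numbers lower and higher were 29 and 21 with TMM, 9 and 33 with DESeq2, 84 and 33 with at least 10 reads, 107 and 43 with 1 read in Col, and 6 were higher with identical entries counted once. The share of miRNAs with a lower fold change was 92.3% for miR166a in dcl1-9 among those of at least 10000 reads in Col. In cdf2 it was 14.4% and 16.7% for miR165a and miR166a with at least 10 reads, and 19.9% and 21.9% with 1 read in Col. The planned scale by genome-matched reads was not run, because the total printed for Col is too small to hold the miRNA reads of that library, which are 2669903 with 1 entry per family. No star strand ratio was computed, and no paired analysis was possible because each genotype has 1 library.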
